A study of Mus musculus with 10 samples.

Results

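The genes described here were Car1, Car2, Car4, Aqp4, Aqp8, Slc26a3, Scnn1a, Cftr, Guca2a and Ceacam20, carbonic anhydrases, channels and other surface genes of the colonic epithelium. They were chosen by name and make up 10 of the 31053 genes counted. Single-cell transcriptomes came from 10 mouse libraries, in which each captured transcript molecule was counted once by its unique molecular identifier (UMI). The authors' deposited annotation holds 25204 cells and gives each of them a class or a cluster number.

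Colonic crypts of normal mice (1 library, 1132 cells, 19906845 UMIs) and of mice given dextran sulfate sodium (DSS, 1 library, 1933 cells, 32397122 UMIs) were the libraries in which the genes were described by cluster. DSS in drinking water damages the colonic lining and serves as a model of colitis. The labels give neither the segment of colon nor the number of mice behind a library. Organoids, epithelial cultures grown in a gel from crypts of the proximal small intestine, gave the other 8 libraries. ENR-organoids (3 libraries) were grown with EGF, Noggin and R-Spondin 1, the conventional mixture. Hyper-organoids (3 libraries) were grown with the growth factors EGF and FGF2, R-Spondin 1 conditioned medium, and the small molecules VPA, EPZ6438, Pexmetinib, LDN193189 and GSK-3 Inhibitor XV. -VE-organoids (2 libraries) received the same medium without VPA and EPZ6438, inhibitors of histone deacetylases and of the methyltransferase EZH2. Cultures carried the series names 2, 6 and C, numbered here as replicates 1, 2 and 3, and passages were 2, 7 and 3 for ENR, 1 and 6 for -VE, and 1, 6 and 3 for Hyper. Replicates 1 and 2 of -VE and Hyper were started from ENR-organoids, whereas ENR 3 and Hyper 3 were started from primary crypts, so the Hyper replicates differ in origin. Totals in organoid libraries ran from 89124015 to 170019527 UMIs, and any pair of the 10 libraries shared at most 5 cell barcodes.

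The colonic surface absorbs salt and water and exchanges chloride for bicarbonate, while cells deeper in the crypt secrete chloride. Carbonic anhydrases interconvert carbon dioxide and bicarbonate, which supplies protons and bicarbonate to the exchangers of the apical membrane. Car1 and Car2 are cytosolic enzymes, and Car4 is tethered to the outer face of the membrane. Aqp4 and Aqp8 are water channels. Slc26a3 is the apical chloride-bicarbonate exchanger whose loss causes congenital chloride diarrhoea, Scnn1a is the alpha subunit of the epithelial sodium channel, and Cftr is the cAMP-gated chloride channel mutated in cystic fibrosis. Guca2a encodes the prohormone of guanylin, which acts through the receptor guanylate cyclase C, and Ceacam20 is an adhesion molecule of the brush border.

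All 10 are annotated as protein-coding in GENCODE on the build GRCm38, and positions are given for 9 of them. Car1 (chr3:14766216-14808368, minus strand) and Car2 (chr3:14886273-14900770, plus strand) lie on the same chromosome with 77904 bases between them. Car4 lies at chr11:84957786-84966044, Aqp8 at chr7:123462291-123468004 and Slc26a3 at chr12:31390871-31473917. Scnn1a lies at chr6:125320659-125344943, Cftr at chr6:18170687-18322768, Guca2a at chr4:119637704-119639471 and Ceacam20 at chr7:19965412-19991104, each on the plus strand like the 3 before them.

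Promoters from RefSeq (GRCm38.p6) were found for 6 of the 10 genes, and all 6 are printed, 5 of genes that were higher toward the colonic surface and that of Cftr, which was lower there. Each sequence is the 250 bases before the RefSeq start, 5′ to 3′ on the plus strand, which is the strand of the gene. The RefSeq start of Slc26a3 lies inside the span that GENCODE gives the gene. Capitals mark a match, on either strand, to AGATAAG (bound by GATA factors), to CAATAAA or CCATAAA (CDX factors), or to CAAAGTCCA or CAAAGGTCA (HNF4-type receptors). The letters were chosen with the sequences in view.
Guca2a, chr4:119637482-119637731: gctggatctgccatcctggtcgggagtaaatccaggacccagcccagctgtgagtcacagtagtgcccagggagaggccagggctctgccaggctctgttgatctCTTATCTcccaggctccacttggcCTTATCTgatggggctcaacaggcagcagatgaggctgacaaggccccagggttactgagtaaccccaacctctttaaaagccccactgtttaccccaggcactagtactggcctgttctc
Slc26a3, chr12:31437969-31438218: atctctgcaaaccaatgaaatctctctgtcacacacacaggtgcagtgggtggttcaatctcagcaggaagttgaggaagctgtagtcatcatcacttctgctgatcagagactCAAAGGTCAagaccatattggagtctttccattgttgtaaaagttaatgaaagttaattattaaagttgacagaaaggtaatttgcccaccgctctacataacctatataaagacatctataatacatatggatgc
Ceacam20, chr7:19965162-19965411: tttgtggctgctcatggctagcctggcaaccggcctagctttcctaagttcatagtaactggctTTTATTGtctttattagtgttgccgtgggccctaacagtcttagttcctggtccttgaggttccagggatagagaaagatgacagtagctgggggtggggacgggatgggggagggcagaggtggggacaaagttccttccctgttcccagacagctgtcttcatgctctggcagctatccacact
Car4, chr11:84957504-84957753: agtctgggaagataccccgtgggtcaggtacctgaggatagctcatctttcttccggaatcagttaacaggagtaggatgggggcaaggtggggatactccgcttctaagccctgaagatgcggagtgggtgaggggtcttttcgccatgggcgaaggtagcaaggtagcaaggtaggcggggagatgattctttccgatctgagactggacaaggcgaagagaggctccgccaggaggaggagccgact
Aqp8, chr7:123462044-123462293: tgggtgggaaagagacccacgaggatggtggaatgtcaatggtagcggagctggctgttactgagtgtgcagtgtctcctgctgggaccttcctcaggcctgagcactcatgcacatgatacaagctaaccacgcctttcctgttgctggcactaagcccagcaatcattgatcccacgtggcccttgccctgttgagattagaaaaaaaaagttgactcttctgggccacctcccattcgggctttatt
Cftr, chr6:18170437-18170686: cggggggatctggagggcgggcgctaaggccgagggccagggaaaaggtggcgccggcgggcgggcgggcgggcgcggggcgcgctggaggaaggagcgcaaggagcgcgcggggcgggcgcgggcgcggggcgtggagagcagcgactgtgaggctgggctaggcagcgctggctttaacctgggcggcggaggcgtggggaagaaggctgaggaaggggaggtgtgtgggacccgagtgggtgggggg
Guca2a holds 2 matches to AGATAAG on the opposite strand, 145 and 121 bases before the start. Slc26a3 holds 1 match to CAAAGGTCA at 136 bases and Ceacam20 1 match to CAATAAA, on the opposite strand, at 186 bases before the start. None of these letters is in the sequences of Car4, Aqp8 or Cftr, so 3 of the 5 surface genes had a match and 2 had none. In the Cftr sequence 76.4% is G or C, against 38.8% for Slc26a3. Among 32851 mouse promoters of the same length, 2.74% hold AGATAAG, 6.51% hold the CDX letters and 0.807% the HNF4-type letters, so a match is a description of these bases only.

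In the colonic libraries the cells outside the leukocyte clusters carried the 10 genes. Levels are CPM, the UMIs of a gene scaled to a fixed total of UMIs per library or group of cells, and the intervals given with colonic values are exact Poisson 95% intervals that cover counting error only. Of the 25 clusters, 6 held a UMI of Ptprc, the pan-leukocyte gene, in over 50% of their cells, and they took 219 normal and 445 DSS cells. In these clusters Car1 had 167 CPM in the normal and 328 CPM in the DSS library, against 6303 and 5224 CPM in the other clusters. Cftr had 0 and 4.16 CPM in the Ptprc clusters and 51.0 and 55.1 CPM elsewhere. Aqp4 had 1.24 and 10.4 CPM against 444 and 251 CPM. Epcam, an epithelial gene, was found in 23.8% to 48.4% of the cells of these clusters, so values there are given as a comparison level that free RNA can add to, except for Car2, which differed between these clusters. Depth differed too, with medians of 3517 and 3532 UMIs per cell in Ptprc clusters and of 21790 and 20950 UMIs elsewhere. With each cell thinned to 3000 UMIs, 40.4% of cells in the normal Ptprc clusters and 69.4% of the other cells held a Car1 UMI, and in the DSS library the shares were 61.9% and 61.7%. A Car1 UMI in a DSS cell was therefore no sign of expression, and Car1 is described by its level. For Car4 the thinned shares were 14.1% against 35.3% in the normal and 7.49% against 17.6% in the DSS library, and for Aqp8 1.92% against 15.1% and 6.51% against 11.02%.

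To order the cells by surface markers, those with an Epcam UMI and no Ptprc UMI were thinned to 3000 UMIs each (805 normal and 1249 DSS cells). Shallower cells were left out, so the bins hold 805 of 907 normal and 1249 of 1479 DSS cells of this kind. Most cells of DSS cluster 17 (median 2466 UMIs), with Car4 at 2192 CPM and Guca2a at 5524 CPM, are thus absent from the DSS bins. The thinned cells were ordered by the summed UMIs of 10 surface markers that include none of the 10 genes (Krt20, Lypd8, Slc37a2, Cdhr5, Emp1, Saa1, Tmigd1, Slc20a1, Muc3 and Cyp2c55) and divided into 5 bins of equal size. This ordering was chosen after the data were seen and is a description. Bins were cut by rank within each library, so they do not cover the same scores: the median surface-marker UMIs per cell in bins 1 to 5 were 3, 12, 32, 73 and 144 in the normal and 3, 9, 19.5, 44 and 118 in the DSS library. The distal-colon gene Hoxb13 was also lowest in bin 1 and highest in bin 5 of both libraries, with 37.3, 84.9, 151, 168 and 304 CPM in the normal and 92.0, 176, 157, 175 and 206 CPM in the DSS bins. The part of position along the colon in the patterns over bins was not tested. Bin 1 held the stem marker Lgr5 at 20.7 CPM in the normal and 24.0 CPM in the DSS library, the proliferation marker Mki67 at 35.2 and 40.0 CPM, and the goblet mucin Muc2 at 6526 and 4600 CPM. In bin 5 Lgr5 and Mki67 had 0 UMIs in both libraries, with upper bounds of 7.64 CPM in the normal and 4.94 CPM in the DSS library.

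Over the bins the members rose mainly in bin 5, rose over several bins, peaked in bin 3 or 4, or were lowest in bin 5. These patterns describe the score and not depth in the crypt, and 48.4% of normal bin 1 cells held a Muc2 UMI. Car4 had 31.1, 35.2, 120, 466 and 3091 CPM in normal bins 1 to 5, and 8.00, 13.3, 26.7, 72.0 and 1099 CPM in the DSS bins. Aqp8 had 4.14, 4.14, 20.7, 114 and 1501 CPM in the normal bins, and 5.33, 5.33, 5.33, 36.0 and 788 CPM in the DSS bins. Both genes were by far highest in bin 5, where the DSS intervals lay below the normal ones.

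Guca2a had 532, 712, 1965, 4598 and 7470 CPM in the normal bins against 272, 379, 617, 1305 and 1881 CPM in the DSS bins. Slc26a3 had 4.14, 49.7, 153, 377 and 807 CPM against 5.33, 26.7, 61.3, 156 and 329 CPM. Scnn1a had 8.28, 14.5, 29.0, 70.4 and 166 CPM against 9.33, 8.00, 16.0, 25.3 and 68.3 CPM. These 3 genes climbed over several bins, with lower levels in the DSS bins 3 to 5 than in the normal bins of the same rank, whose surface-marker scores were higher. The intervals of the libraries did not overlap in any bin for Guca2a, in bins 3, 4 and 5 for Slc26a3, and in bins 4 and 5 for Scnn1a. Ceacam20 had 4.14, 12.4, 31.1, 147 and 445 CPM against 6.67, 22.7, 22.7, 80.0 and 339 CPM, with DSS intervals below the normal ones in bins 4 and 5.

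Car1 peaked in bin 4 in the normal library, with 406, 4230, 9072, 10926 and 4085 CPM. In the DSS library it had 253, 1285, 3717, 9388 and 8885 CPM. In bin 5 the DSS level was higher by 1.12 on the log2 scale, and in bins 1 to 4 it was lower. DSS bin 5 began at 68 surface-marker UMIs, within normal bin 4 (53 to 101), where Car1 was highest, and normal bin 5 began at 102, so the bins of rank 5 hold cells of unlike scores.

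Aqp4 and Car2 were highest in the middle bins. Aqp4 had 47.6, 236, 658, 816 and 201 CPM in the normal and 68.0, 181, 333, 460 and 100.4 CPM in the DSS bins. Car2 had 590, 1060, 1195, 1097 and 582 CPM in the normal and 421, 657, 849, 901 and 541 CPM in the DSS bins. The DSS intervals lay below the normal ones in bins 3 to 5 for Aqp4 and in bins 1 to 4 for Car2. Cftr was highest in bin 2 and lowest in bin 5, with 53.8, 80.7, 49.7, 22.8 and 6.21 CPM in the normal and 54.7, 70.7, 62.7, 42.7 and 9.37 CPM in the DSS bins. Its intervals overlapped between the libraries in each bin. A score without Saa1 and Cyp2c55, of which Saa1 runs closest to Aqp8 and Cyp2c55 close to Car1 over clusters, left the bin 5 difference of Car1 at 1.05 and that of Guca2a at -2.02, against -1.99 with all 10 markers. It moved the bin 5 difference of Aqp4 from -0.99 to -1.32, past 2-fold, and normal bin 4 of Aqp8 from 114 to 205 CPM. Krt20, the second nearest gene to Ceacam20 (r = 0.92), stayed in both scores, so the Ceacam20 pattern over bins was not freed of it.

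**Figure D1:**
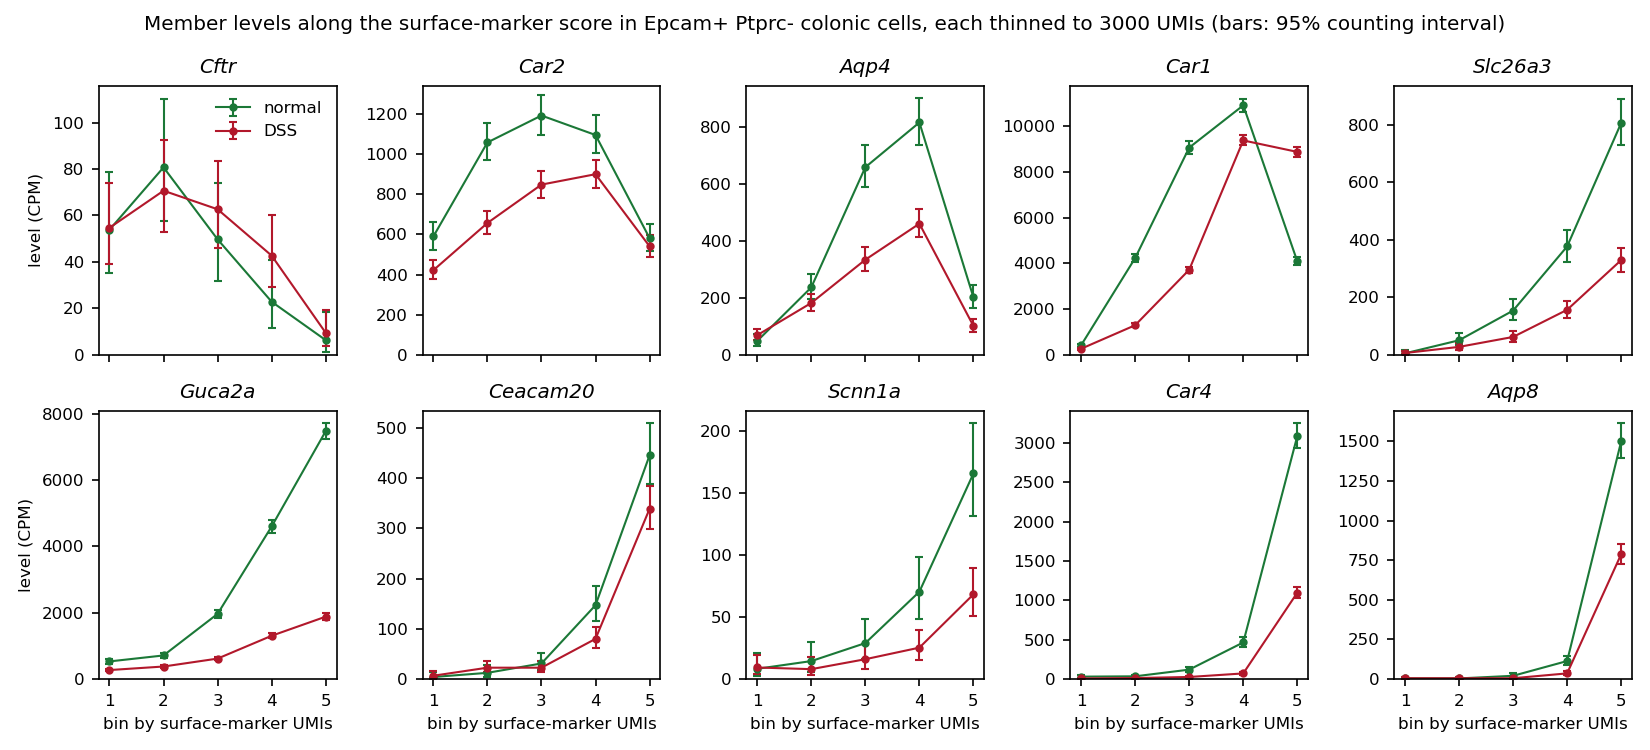
CPM (vertical axis, linear and starting at 0) of each of the 10 genes in 5 bins of Epcam+ Ptprc- colonic cells ordered by surface-marker UMIs (horizontal axis), green for the normal and red for the DSS library, with exact Poisson 95% intervals. Car4 and Aqp8 rise in bin 5, to 3091 and 1501 CPM in normal cells, while Cftr falls to 6.21 CPM and Aqp4 and Car2 peak before bin 5.

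Across the authors' clusters 8 of the 10 genes were highest in a cluster held almost wholly by the normal library, and Car1 and Cftr in clusters that both libraries shared. Clusters were made from the genes of these cells, so their levels are given with no test, and a cluster held mostly by 1 library may reflect that library rather than a cell type. Cluster 12 (93 normal cells and 1 DSS cell, with a median of 5847 UMIs per normal cell) held Car4 at 5134 CPM, Aqp8 at 3060 CPM and Guca2a at 8581 CPM. It also held Slc26a3 at 806 CPM, Ceacam20 at 639 CPM and Scnn1a at 258 CPM, the highest level of each over the 28 cluster and library sums with 30 or more cells, while Cftr had 0 UMIs there. In the DSS library Aqp8 was highest in cluster 7 (139 DSS and 8 normal cells), at 1212 CPM, with Car4 at 1182 CPM and Scnn1a at 117 CPM. Cluster 17 (57 DSS cells, median 2466 UMIs) held Car4 at 2192 CPM, Guca2a at 5524 CPM and Aqp8 at 589 CPM but Scnn1a at 10.6 CPM and no UMI of Aqp4 or Cftr. Clusters 12 and 17 are shallow beside the library medians of 18374.5 and 16051 UMIs, and they are called by number only.

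Cluster 3 (274 normal cells and 1 DSS cell) had the highest Aqp4 level, 990 CPM, and held 70.3% of the normal library's Aqp4 UMIs, 69.3% of its Slc26a3 UMIs and 59.6% of its Guca2a UMIs. Aqp4 followed in cluster 10 of the DSS library at 855 CPM and in cluster 14 of the normal library at 766 CPM, and the intervals of these 3 did not overlap. Car2 was highest in cluster 14 at 1666 CPM, followed by cluster 10 at 1244 CPM and cluster 3 at 1244 CPM, which did not differ beyond their intervals. Car1 was highest in cluster 6, at 31540 CPM in 64 normal and 22813 CPM in 157 DSS cells, then in cluster 1 of the normal library at 12084 CPM, cluster 9 of the DSS library at 11208 CPM and cluster 1 of the DSS library at 7853 CPM. Summed Hoxb13 and Hoxd13, genes of the distal colon, were between 1.35 and 3.99 CPM in clusters 1 and 6 and between 170 and 425 CPM in clusters 3, 4, 7, 10, 12 and 14, over the sums with 30 or more cells. Cluster 9 of the DSS library had 34.4 CPM. Cluster 17 of the DSS library, with Car4 at 2192 CPM and Guca2a at 5524 CPM, had 5.31 CPM. Clusters 1, 6 and 17 thus held almost none of the distal-colon genes, whereas cluster 3, with Car1 at 6259 CPM, had 187 CPM of them, and the segment that each library was taken from is not given.

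Cftr was highest in cluster 2 of the DSS library, which the deposited annotation names stem, at 114 CPM (103 to 125 CPM), in cluster 14 at 108 CPM (93.7 to 125 CPM) and in cluster 2 of the normal library at 101 CPM (89.0 to 115 CPM). These 3 levels did not differ beyond their intervals. Cluster 19 (36 normal cells), with goblet markers at 120341 CPM in sum, held Cftr at 1.52 CPM and Scnn1a at 53.1 CPM. Cluster 5 also held goblet markers, at 50433 CPM in the normal and 50144 CPM in the DSS library. Its Cftr stood at 19.5 and 24.6 CPM and its Scnn1a at 34.3 and 41.1 CPM. Ceacam20 was found at 102 CPM in cluster 16 (43 DSS cells), whose enteroendocrine markers summed to 42328 CPM, although Slc26a3 had only 7.02 CPM there.

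**Figure D2:**
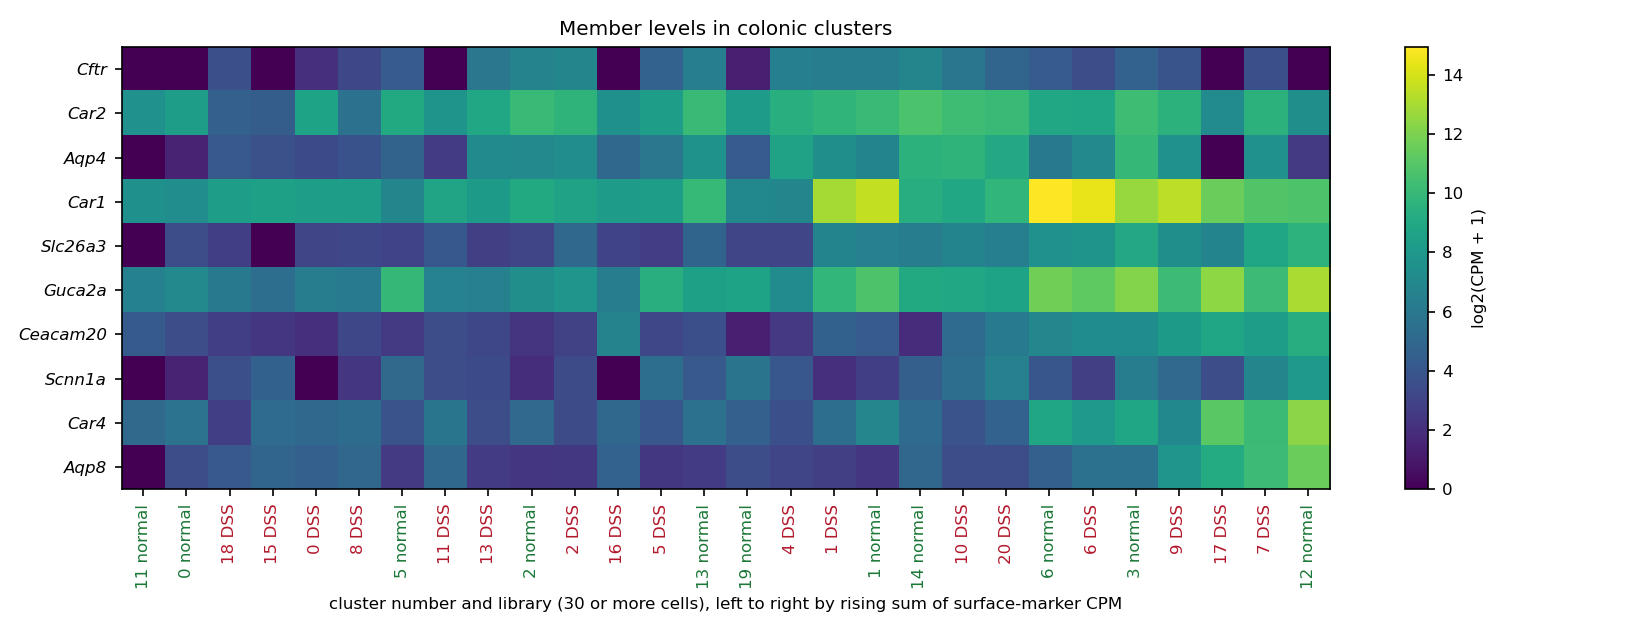
Levels of the 10 genes as log2(CPM + 1) (colour) in colonic clusters with 30 or more cells, labelled by cluster number and library and ordered from left to right by the summed CPM of the 10 surface markers. Car4 and Aqp8 are bright at the right end, in clusters 17, 7 and 12, and Car1 in clusters 1, 6, 3 and 9.

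Correlations of log2(CPM + 1) over these 28 sums describe which genes shared a pattern, and since the sums come from 2 libraries and differ in depth they carry no p. The sums include those of Ptprc clusters, where genes that are low together gain in r. Car4 ran most like Ceacam20 among the 10 genes (r = 0.81) and then like Aqp8 (r = 0.80), Slc26a3 ran like Guca2a (r = 0.84), and Aqp4 like Cftr (r = 0.83). The 2 water channels were not alike, with r = -0.12, and neither were Car1 and Car2, with r = 0.29. Among 8199 genes with a mean of at least 10 CPM, the gene nearest to Car1 was Cyp2c65 (r = 0.89), followed by Cyp2c55 and 1810065E05Rik. The gene nearest to Car4 was Slc9a3 (r = 0.90), the apical sodium-proton exchanger, followed by Plekhg6 and Prkcd, and the gene nearest to Aqp8 was Saa1 (r = 0.89), followed by Slc15a1 and Slc34a2. Car2 was nearest to Cyc1 (r = 0.91), Ndufa5 and Ndufa9, components of the respiratory chain, and Aqp4 to Coq7 (r = 0.91), Hao2 and Ndrg2. Slc26a3 was nearest to Ces2c (r = 0.92), Fa2h and 2200002D01Rik, Guca2a to Rfk (r = 0.93), mt-Co1 and Upk1a, and Ceacam20 to Myo15b (r = 0.93), Krt20 and Specc1l. Cftr was nearest to Gstm3 (r = 0.96), Csrp2 and Gstm2, and Scnn1a had the weakest nearest gene, Dusp6 (r = 0.80), followed by Anxa3 and Myo5c.

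Detection within single cells was also described without clusters. Of the 121 thinned normal cells with an Aqp8 UMI, 107 (88.4%) also held Car4, against 35.5% of the 805 cells, and 2 (1.65%) held Cftr, against 11.3%. Of the 136 thinned DSS cells with an Aqp8 UMI, 88 (64.7%) held Car4, against 17.3% of 1249 cells. Among the 91 normal cells with a Cftr UMI, 78 (85.7%) held Car2, against 75.5% of all 805 cells, and 2 (2.20%) held Scnn1a, against 13.5%. Aqp4, which ran like Cftr over the sums, was held by 34 of these 91 cells (37.4%), against 39.8% of all 805. Of the 165 DSS cells with a Cftr UMI, 68 (41.2%) held Aqp4, against 34.4% of 1249 cells. In the normal Ptprc clusters 43.6% of thinned cells held Car2.

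The normal and DSS libraries were then compared over the kept cells, with no replicate and hence no test. Past 2-fold lower in the DSS library were 3 of the 10 genes, Guca2a, Car4 and Slc26a3, and none was past 2-fold higher. Of 12074 genes with a mean of at least 1 CPM, 1.53% were past 2-fold lower and 3.13% past 2-fold higher. The median log2 ratio of DSS over normal was -0.68 for the 10 genes and 0.03 for all genes, with a pseudocount of 1 CPM.

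Guca2a had 2368 CPM (2346 to 2389) in the normal and 797 CPM (788 to 807) in the DSS library, a log2 ratio of -1.57. Car4 had 374 CPM (365 to 382) and 145 CPM (141 to 150), a log2 ratio of -1.36. Slc26a3 had 224 CPM (218 to 231) and 101 CPM (97.6 to 105), a log2 ratio of -1.14. All 3 were highest in bin 5 of the ordered cells.

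Smaller differences were found for the other 7. Aqp4 had 426 and 236 CPM (log2 ratio -0.85), Scnn1a 44.0 and 24.7 CPM (-0.81), and Car2 1003 and 684 CPM (-0.55). Car1 had 6054 and 4933 CPM (-0.30), Ceacam20 84.6 and 75.1 CPM (-0.17) and Aqp8 121 and 115 CPM (-0.08). Cftr had 48.9 and 52.1 CPM, a log2 ratio of 0.09 whose counting interval, from -0.02 to 0.21, includes 0. A sum over a library mixes how many cells of a kind were captured with how much RNA each of them held, and these cannot be told apart from the sum alone.

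With both libraries set to the same mix of the 7 clusters that held at least 20 cells of each (580 normal and 953 DSS cells), none of the 10 genes passed 2-fold. Of 12170 genes compared in that mix, 160 were past 2-fold lower and 209 higher. Car4 was then at -0.90 and Guca2a at -0.59, Slc26a3 turned to 0.24, Aqp4 to 0.54, and Aqp8 to 0.98. Clusters 3, 7, 12 and 17 are absent from that mix, so it leaves out the cells in which Car4 and Aqp8 were highest. Of the 5 shared clusters without Ptprc, Car2 and Car4 were lower in the DSS library beyond their intervals in 4 and higher in 0, and Car1 and Guca2a were lower in 4 and higher in 1. Aqp4 was lower in 1 and higher in 3, Slc26a3 lower in 1 and higher in 1, and Aqp8, Scnn1a and Ceacam20 lower in 0 and higher in 1. Cftr overlapped in all 5. The share of all genes that differ beyond such intervals, here or in the bins, was not counted. The intervals cover counting error only, so these counts describe the 2 libraries and are not read as a result about the 10 genes. With each cell thinned to 3000 UMIs, which weights cells equally and leaves out shallower ones, Scnn1a also passed 2-fold (-1.08) and Aqp8 was at -0.99. There 296 of 12483 genes were past 2-fold lower and 709 higher.

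**Figure D3:**
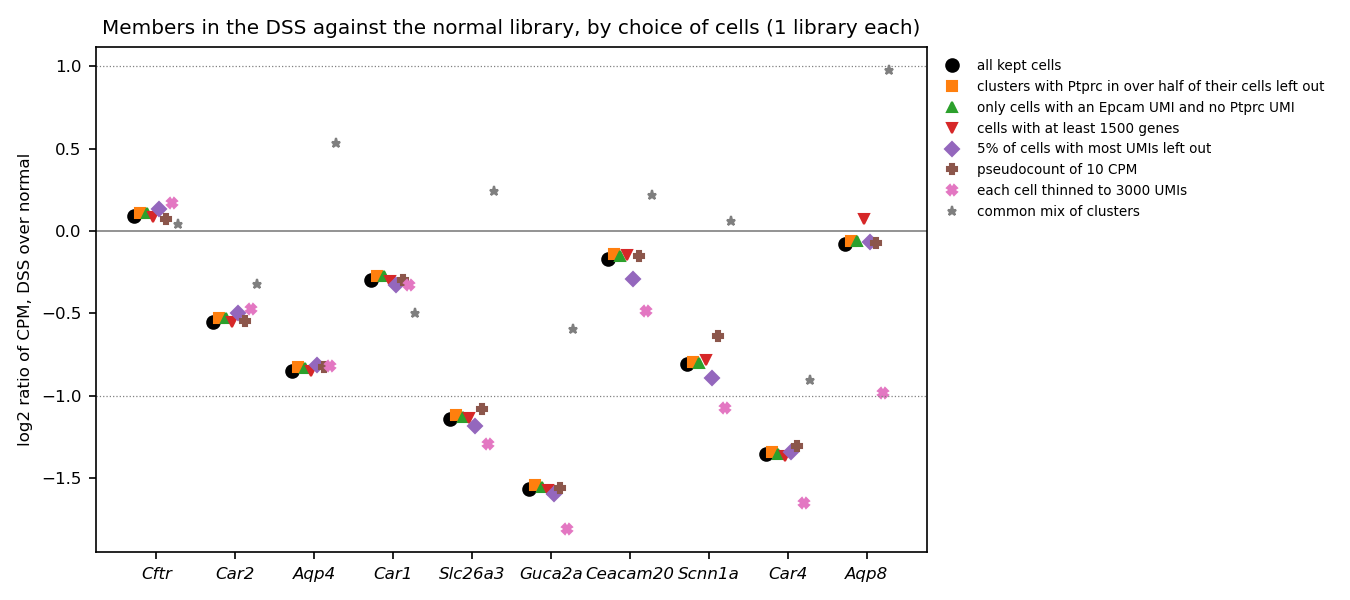
Log2 ratio of CPM, DSS over normal (vertical axis), of the 10 genes (horizontal axis) under 8 choices of cells, weights or pseudocount, with dotted lines at 2-fold. Guca2a, Car4 and Slc26a3 lie below the lower line under 7 of them, and the grey stars of the common mix of clusters lie above it for each gene.

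Of 66 other genes of these pathways, 41 could be compared, and 3 were past 2-fold lower and 3 higher in the DSS library, where 1.53% of all genes were lower and 3.13% higher. The sodium-proton exchanger Slc9a3 had 61.6 CPM in the normal and 23.5 CPM in the DSS library (-1.36), but it was at 0.43 in the common mix of clusters. The goblet protein Clca1 had 1493 and 44.0 CPM (-5.05). Its relative Clca4a had 94.2 and 39.4 CPM (-1.24), whereas Clca4b had 2.86 and 147 CPM (5.26), and reads of these close paralogs could be split between them in ways the counting does not show. Ceacam10 had 71.4 and 204 CPM (1.502), and the bicarbonate channel Best2, named after its value was seen, had 5.17 and 11.5 CPM (1.02). None of the 4 carbonic anhydrases, 2 aquaporins, 4 genes of anion exchange and bicarbonate transport and 4 guanylin-pathway genes compared passed 2-fold. Guca2b, which encodes uroguanylin, had 56.0 and 65.3 CPM, and the receptor Gucy2c had 89.3 and 104 CPM.

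In organoids of the small intestine the same genes had a different rank, and Car1 was all but absent. Car1 had 2 UMIs in the 8 libraries, both in 1 cell of ENR replicate 1, and was not tested. Organoid levels in all kept cells are CPM scaled by TMM factors, with the value of each library given for ENR 1 to 3, -VE 1 and 2, and Hyper 1 to 3. Libraries were compared with edgeR's quasi-likelihood test on UMI sums, and calls needed both a difference of at least 2-fold and a p, adjusted by the Benjamini-Hochberg method, under 0.05. The labels do not say whether the libraries of a group came from separate mice, so p-values measure the spread between these cultures.

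Of the 9 genes tested, 4 were called lower in Hyper- than in ENR-organoids and 0 higher, where 4.75% of 16037 genes were called lower and 18.2% higher. Among the 4 are Car4 and Aqp8, which passed the filter on low counts through their ENR libraries. A lower call was thus the only one open to them against ENR. The median log2 fold was -0.77 for the 9 genes and -0.01 for all genes tested. Slc26a3 had 33.5, 37.5 and 37.6 CPM in ENR, 18.8 and 18.1 CPM in -VE, and 5.56, 7.43 and 7.61 CPM in Hyper libraries. The 3 groups did not overlap. Slc26a3 was lower in Hyper- than in ENR-organoids by a log2 fold of -2.40 (SE 0.12, edgeR adjusted p = 3.30e-06).

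Aqp8 had 2.08, 2.22 and 1.93 CPM in ENR, 0.257 and 0.0122 CPM in -VE, and 0.0204, 0.0133 and 0.0211 CPM in Hyper libraries. The -VE libraries differed from each other more than from Hyper, and each of the 5 lay below each ENR library. Over the groups these were 629, 32 and 7 UMIs, a ratio of 108 (95% counting interval 52.0 to 269) for ENR over Hyper, and the fitted log2 fold was -6.78 (SE 0.86, edgeR adjusted p = 0.000276). Car4 had 29, 86 and 40 UMIs in ENR, 0 and 2 in -VE, and 2, 0 and 1 in Hyper libraries. Its ENR level was thus 61.97 times that of Hyper-organoids (counting interval 20.8 to 304), with a fitted log2 fold of -5.85 (SE 0.72, edgeR adjusted p = 0.000247). Scnn1a had 2.91, 2.43 and 3.30 CPM in ENR, 2.35 and 1.92 CPM in -VE, and 1.02, 0.670 and 1.08 CPM in Hyper libraries, a log2 fold of -1.64 (SE 0.22, edgeR adjusted p = 0.000385). Hyper libraries lay below those of both other groups for Scnn1a.

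Other genes differed by less than 2-fold between Hyper and ENR. Aqp4 had 84.1, 85.3 and 84.7 CPM in ENR, 97.2 and 86.8 CPM in -VE, and 76.6, 40.6 and 48.7 CPM in Hyper libraries, a log2 fold of -0.61 (edgeR adjusted p = 0.0297). Hyper replicate 1 stood nearest to the other groups. Cftr had 78.8, 75.0 and 72.2 CPM, 68.0 and 70.8 CPM, and 62.3, 66.5 and 68.6 CPM in the same order, a log2 fold of -0.20 (edgeR adjusted p = 0.0170). Ceacam20 had 1.54, 1.88 and 1.06 CPM, 0.933 and 0.822 CPM, and 0.679, 1.03 and 0.918 CPM, a log2 fold of -0.77 (edgeR adjusted p = 0.0306). Car2 had 3.50, 4.02 and 4.07 CPM, 4.62 and 7.81 CPM, and 4.88, 3.96 and 4.88 CPM, and its log2 fold of 0.24 did not pass (edgeR adjusted p = 0.316). With each cell thinned to 10000 UMIs, Ceacam20 was called lower in Hyper- than in ENR-organoids (-1.01, adjusted p = 0.0088).

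Guca2a was higher in each -VE library than in any ENR or Hyper library. It had 50.7, 59.0 and 56.7 CPM in ENR, 83.1 and 78.6 CPM in -VE, and 38.3, 26.0 and 49.3 CPM in Hyper libraries, and the groups did not overlap. Guca2a was lower in Hyper- than in -VE-organoids by a log2 fold of -1.10 (SE 0.22, edgeR adjusted p = 0.00409), a call that was lost without Hyper replicate 2 (-0.88). Against ENR its log2 fold was -0.55 (edgeR adjusted p = 0.0404) for Hyper and 0.54 (edgeR adjusted p = 0.174) for -VE.

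Between Hyper- and -VE-organoids 3 of the 9 genes were called lower, where 2.51% of all genes were called lower and 16.1% higher. Beside Guca2a these were Slc26a3, with a log2 fold of -1.43 (SE 0.13, edgeR adjusted p = 0.000116), and Scnn1a, with -1.21 (SE 0.24, edgeR adjusted p = 0.00409). Aqp8 was at -2.75 (SE 1.02, edgeR adjusted p = 0.0562) and not called, although DESeq2 called it (adjusted p = 0.0078), and without -VE replicate 1 its fold turned to 0.53. Between -VE- and ENR-organoids 2 of the 9 genes were called lower, Car4 (log2 fold -5.97, SE 0.86, edgeR adjusted p = 0.00848) and Aqp8 (-4.03, SE 0.80, edgeR adjusted p = 0.0245), where 1.2% of all genes were called lower and 1.35% higher. Both passed the filter on low counts through their ENR libraries, so here too a lower call was the only one open to them. The Car4 call was lost without -VE replicate 2 (adjusted p = 0.0565), and the Aqp8 call without ENR replicate 1, 2 or 3 (adjusted p = 0.0674, 0.0809 and 0.0577). Slc26a3 was at -0.97 (edgeR adjusted p = 0.00691), just short of 2-fold, and passed 2-fold without ENR replicate 1 (-1.03) or -VE replicate 1 (-1.01). Without -VE replicate 1 Car2 was called higher in -VE-organoids (1.01, adjusted p = 0.0274), against 0.69 (edgeR adjusted p = 0.0925) with it. The 3 comparisons share libraries, so their results are not independent of each other.

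**Figure D4:**
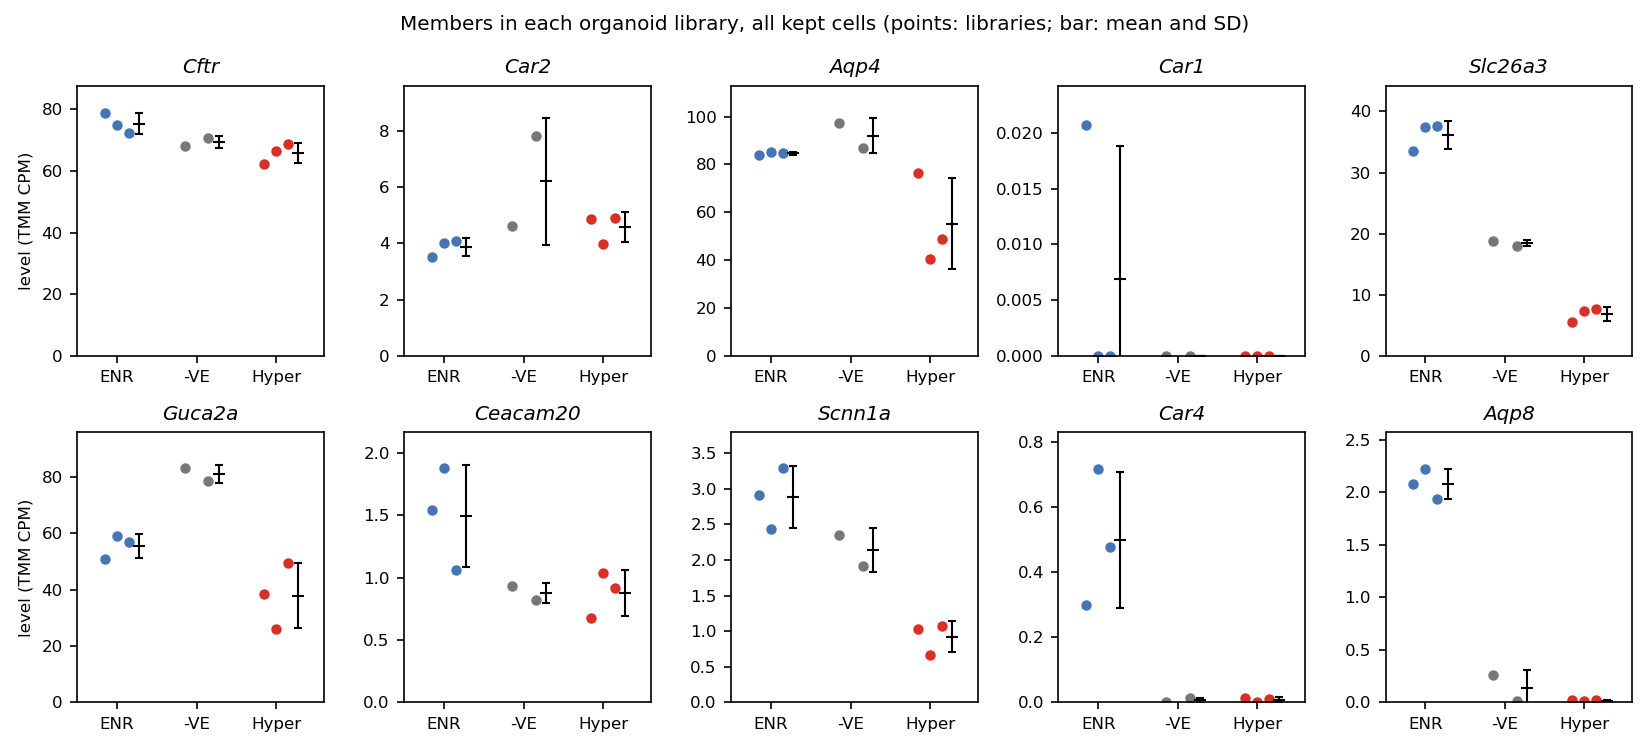
TMM-scaled CPM (vertical axes, linear and starting at 0) of the 10 genes in each organoid library (points, ENR blue, -VE grey, Hyper red), with the mean and SD of each group as bars (n = 3, 2 and 3). Slc26a3 steps down from a mean of 36.2 CPM in ENR to 18.4 CPM in -VE and 6.87 CPM in Hyper, while Aqp8 and Car4 are near 0 in both -VE and Hyper.

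The authors' organoid classes showed which cells carried each gene. Class levels are plain CPM, averaged over libraries with at least 10 cells of the class, and are given with no test because the classes were made from the same cells. Values of single libraries given for the 10 genes with the fits within the stem and enterocyte classes are instead scaled by TMM factors. Those in the closing sections are scaled likewise. Slc26a3 was highest in enterocytes, at 112 ± 25.1 CPM (SD, n = 7), followed by enterocyte progenitors at 39.4 ± 3.04 CPM (n = 5) and stem cells at 13.4 ± 4.48 CPM (n = 8). Aqp8 was likewise highest in enterocytes in ENR-organoids, at 20.3 ± 4.27 CPM (n = 3). In -VE-organoids its mean was highest there too, at 1.65 ± 2.34 CPM (n = 2), but the enterocytes of replicate 2 had 0 CPM. In Hyper-organoids it had 1 UMI in enterocytes and 2 UMIs in enteroendocrine cells. Car4 was highest in enterocytes only in ENR-organoids, at 2.79 ± 1.37 CPM (n = 3), and had 0 UMIs in -VE and Hyper enterocytes, while the 2 and 3 Car4 UMIs of these groups lay in stem and transit amplifying cells. Enterocytes made up 9.78% to 13.1% of cells in ENR, 5.68% to 6.23% in -VE and 0.249% to 1.65% in Hyper libraries, and enterocyte progenitors 22.2% to 34.5%, 4.29% to 4.39% and 0.0852% to 0.107%. The shares of these classes thus moved with the library sums of Slc26a3, Aqp8 and Car4, and their part in the sums was not tested beyond the fits within a class.

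Guca2a in organoids belonged to secretory cells, at 1900 ± 465 CPM in Paneth cells (n = 6) and 862 ± 150 CPM in goblet cells (n = 8), against 15.3 ± 12.1 CPM in enterocytes (n = 7) and 2.41 ± 1.55 CPM in stem cells (n = 8). Goblet cells alone held on average 63.1% of the Guca2a UMIs in ENR, 80.9% in -VE and 91.3% in Hyper libraries. Goblet cells were 4.89% to 5.65% of cells in ENR, 7.24% to 8.83% in -VE and 5.62% to 6.61% in Hyper libraries, and Paneth cells 1.46% to 2.30%, 1.26% to 1.37% and 0.0568% to 0.356%. From -VE to Hyper both shares were lower, as was Guca2a. From ENR to -VE the goblet share was higher, as was Guca2a, and the Paneth share was lower. From ENR to Hyper the Paneth share was lower, as was Guca2a, and the goblet share was higher except for an overlap at the ends. Their part in the library sums was not tested. The goblet class was not alike between groups either, with summed Paneth markers (Ang4, Lyz1 and Defa30) at 3310 to 3840 CPM in ENR, 8727 and 12774 CPM in -VE, and 3459 to 7763 CPM in Hyper libraries. The summed goblet markers of these cells were 23050.3 to 31450.1 CPM in ENR, 20225 and 15996 CPM in -VE, and 9658 to 19367 CPM in Hyper libraries, and the part of either sum in the Guca2a level of the class was not tested. Scnn1a was highest in goblet cells, at 9.42 ± 7.00 CPM (n = 8), and in Paneth cells, at 6.92 ± 4.10 CPM (n = 6), levels that overlapped and whose order turned in Hyper-organoids, with 4.70 CPM in goblet cells and 7.58 CPM in the 10 Paneth cells of 1 library. In -VE-organoids Scnn1a was highest in goblet cells (7.39 CPM) and at 2.42 CPM in Paneth cells, under the 6.53 CPM of the 17 revival stem cells of 1 library. Ceacam20 was highest in enteroendocrine cells, at 17.7 ± 8.42 CPM (n = 8), and next in enterocytes, at 9.08 ± 3.72 CPM (n = 7), while the other classes averaged under 1 CPM. The order of these 2 classes held in ENR (22.6 and 8.99 CPM) and Hyper (19.2 and 9.23 CPM) but not in -VE-organoids, with 7.94 CPM in enteroendocrine cells and 9.09 CPM in enterocytes.

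Cftr was at like levels in transit amplifying cells (77.1 ± 6.41 CPM, n = 8), in enterocyte progenitors (74.3 ± 5.33 CPM, n = 5) and stem cells (74.0 ± 5.50 CPM, n = 8). Enterocytes had 58.9 ± 9.62 CPM (n = 7), a level that differed by medium. It was 51.3 CPM in ENR, 57.7 CPM in -VE and 71.4 CPM in Hyper enterocytes, against 80.0, 67.7 and 72.2 CPM in stem cells of the same groups. Goblet cells had 25.0 ± 9.28 CPM of Cftr (n = 8), Paneth cells 12.6 ± 6.53 CPM (n = 6) and enteroendocrine cells 10.6 ± 8.85 CPM (n = 8). Aqp4 was highest in stem cells, at 94.1 ± 26.5 CPM (n = 8), and lowest in revival stem cells, at 7.80 ± 4.17 CPM (n = 3), which were sampled as 57 cells. Those revival stem cells came from -VE replicate 2 and Hyper replicates 2 and 3, and in them Car2 was at its highest, at 31.03 CPM in -VE and 26.4 ± 16.0 CPM in Hyper cells. In -VE and Hyper enterocytes Car2 had 9.52 and 8.31 CPM, and in stem cells 6.24 and 4.95 CPM. In ENR-organoids, which had no revival stem class, Car2 was highest in enteroendocrine cells, at 15.4 ± 4.16 CPM (n = 3). Between 5.06% and 11.1% of these cells held a Car2 UMI, against 13.5% to 18.7% of ENR transit amplifying cells, so few cells carried that level.

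**Figure D5:**
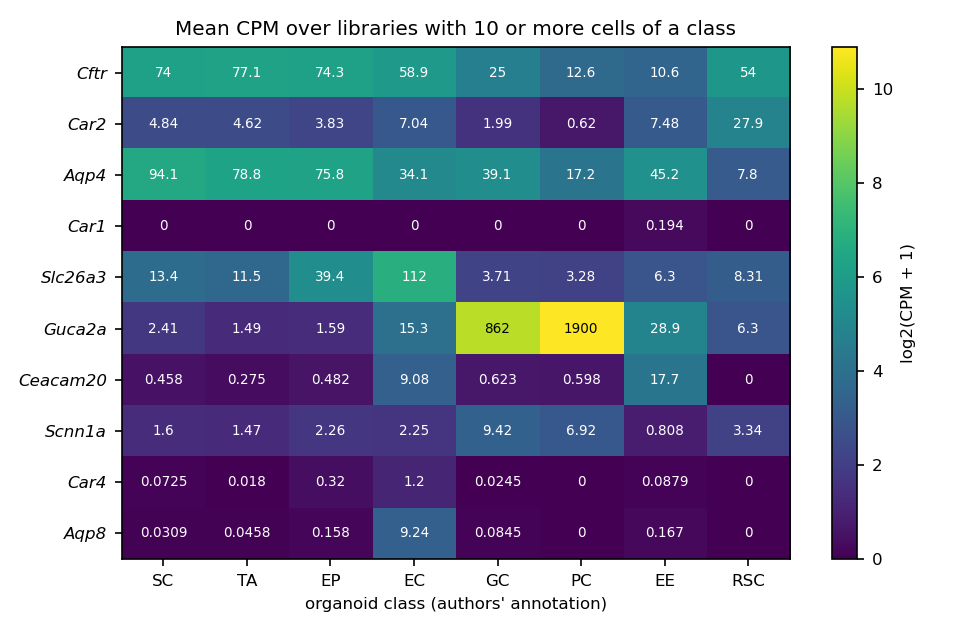
Mean plain CPM of the 10 genes (rows, numbers in the cells) in organoid classes (columns: SC stem, TA transit amplifying, EP enterocyte progenitor, EC enterocyte, GC goblet, PC Paneth, EE enteroendocrine, RSC revival stem), with colour as log2(CPM + 1). Guca2a stands out in Paneth and goblet cells, Slc26a3 in enterocytes, and Cftr and Aqp4 over stem, transit amplifying and progenitor cells.

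Within the stem class, present in each library with 229 to 1481 cells, 2 of the 7 genes tested were called lower in Hyper- than in ENR-organoids, where 2.8% of 13920 genes were. Slc26a3 had 18.6, 18.3 and 17.8 CPM in ENR and 6.94, 7.52 and 9.76 CPM in Hyper stem cells, a log2 fold of -1.18 (SE 0.15, edgeR adjusted p = 0.000197). Scnn1a had 2.35, 2.15 and 2.22 CPM in ENR and 0.888, 0.604 and 0.963 CPM in Hyper stem cells, a log2 fold of -1.46 (SE 0.26, edgeR adjusted p = 0.00157). The libraries of the 2 groups did not overlap for either gene. The class itself was not alike between the groups, since its summed stem markers (Lgr5, Ascl2, Olfm4 and Cd44) stood at 3936, 4560 and 3157 CPM in ENR, 2664 and 1958 CPM in -VE, and 923, 295 and 268 CPM in Hyper libraries. Their part in the differences was not tested.

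Against -VE stem cells, Scnn1a was the 1 gene called lower in Hyper stem cells (-1.21, SE 0.27, edgeR adjusted p = 0.00558), where 1.76% of genes were, and the call was lost without Hyper replicate 2 (-0.996). Slc26a3 was at -0.86 (edgeR adjusted p = 0.00185), under 2-fold. Aqp4 was at -0.82 against ENR (edgeR adjusted p = 0.00960) and at -0.85 against -VE (edgeR adjusted p = 0.0132), and Hyper replicate 1, at 90.7 CPM, stood apart from the 46.2 and 54.4 CPM of the other two. Cftr was at -0.26 against ENR (edgeR adjusted p = 0.00598). In the stem class 0 genes of the 7 were called between -VE and ENR by edgeR or by DESeq2, where 0.273% of genes were called lower.

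Summed enterocyte markers (Fabp1, Apoa1, Reg1 and Rbp2) in the enterocyte class were 17449 to 19192 CPM in ENR, 9123 and 10985 CPM in -VE, and 28454 and 16845 CPM in Hyper libraries. Within this class Hyper-organoids were represented by 58 and 21 cells of replicates 2 and 3, since the 7 cells of replicate 1 fell under the minimum of 10. Of 9 genes tested, 4 were called lower in Hyper than in ENR enterocytes, where 3.08% of 11154 genes were. Guca2a had 30.9, 24.4 and 30.3 CPM in ENR, 7.36 and 5.12 CPM in -VE, and 1.62 and 9.21 CPM in Hyper enterocytes, a log2 fold of -2.86 (SE 0.45, edgeR adjusted p = 0.00178) for Hyper against ENR. Aqp8 had 25.0, 19.4 and 17.8 CPM in ENR, 3.29 and 0 CPM in -VE, and 0.404 and 0 CPM in Hyper enterocytes, the Hyper value being 1 UMI. The ratio of ENR over Hyper was 68.0 with a counting interval of 12.2 to 2690.1 (edgeR adjusted p = 0.00798). Aqp4 had 45.4, 38.9 and 42.5 CPM in ENR and 8.49 and 25.6 CPM in Hyper enterocytes, a log2 fold of -1.59 (SE 0.38, edgeR adjusted p = 0.0152).

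Car4 had 1.45, 4.24 and 2.90 CPM in ENR enterocytes and 0 UMIs in both other groups, which with a floor of 3 UMIs over the group is at least 14.6-fold lower in -VE (edgeR adjusted p = 0.0129) and at least 3.48-fold lower in Hyper enterocytes (edgeR adjusted p = 0.0478). All 92 Car4 UMIs of the class lay in ENR cells, so Car4 passed the filter on low counts through ENR alone. Aqp8, with 599 UMIs in ENR, 21 in -VE and 1 in Hyper enterocytes, likewise passed through its ENR libraries. Against ENR a lower call was the only one open to Car4 and Aqp8, although both are counted among the genes called. The Hyper calls of Aqp4, Aqp8 and Car4 rest on few cells: without Hyper replicate 2 their adjusted p was 0.276, 0.106 and 0.269, and Guca2a stayed called (0.0369). Car4 also lost its Hyper call without Hyper replicate 3 (adjusted p = 0.0860) or without ENR replicate 2 or 3 (0.0808 and 0.0896), and its -VE call without -VE replicate 2 (0.0873). Between -VE and ENR enterocytes 3 genes were called lower, where 1.9% of genes were, namely Car4, Guca2a (-2.20, SE 0.28, edgeR adjusted p = 0.00222) and Aqp8 (-3.79, SE 0.59, edgeR adjusted p = 0.00554). DESeq2 did not call Aqp8 there (adjusted p = 0.251), and with the replicate block Car2 was called higher as well (1.49, adjusted p = 0.0164). Between Hyper and -VE enterocytes Aqp4 was the 1 gene called lower (-1.48, SE 0.40, edgeR adjusted p = 0.0369), where 1.75% of genes were, a call lost when ENR replicate 1, 2 or 3, -VE replicate 1 or Hyper replicate 2 was left out (adjusted p from 0.0579 to 0.405). Slc26a3 differed less within enterocytes than in the library sums, with 142, 144 and 134 CPM in ENR, 97.3 and 91.3 CPM in -VE, and 103 and 77.8 CPM in Hyper cells, and its log2 fold against ENR was -0.60 (edgeR adjusted p = 0.00944) for Hyper and -0.57 (edgeR adjusted p = 0.0181) for -VE.

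Other genes of the pathways were called in both directions. Of 66 genes in 7 lists, 54 were tested in all kept cells, and 7 were called higher and 8 lower in Hyper- than in ENR-organoids, with a median log2 fold of -0.16, where 18.2% of all genes were called higher and 4.75% lower. Among the genes of anion exchange and bicarbonate transport Slc4a8 rose from 0.176 ± 0.0618 to 7.75 ± 1.05 CPM (log2 fold 5.44, edgeR adjusted p = 2.24e-06). Slc26a9 was called higher (4.31), and Slc4a5 (-3.76) and 2 more were called lower. Aqp5 was called higher at 9.43, but its Hyper libraries ranged from 0.292 to 20.8 CPM, and Aqp7 at 1.37. Carbonic anhydrases Car5b (2.69) and Car11 (2.49), both under 1 CPM, and the sodium-proton exchanger Slc9a3 (1.07) were called higher. In chloride secretion Clca4b fell from 79.7 ± 14.2 to 4.48 ± 0.695 CPM (-4.15, edgeR adjusted p = 1.58e-06), with its paralog Clca4a (-1.71), and the potassium channel subunit Kcne3 fell from 94.1 ± 1.37 to 34.5 ± 8.85 CPM (-1.45, edgeR adjusted p = 0.000322). Guca2b, the partner of Guca2a, fell from 63.9 ± 6.21 to 19.9 ± 4.83 CPM (-1.69, edgeR adjusted p = 0.000123), and Ceacam18 was called lower at -2.84.

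Against -VE-organoids 8 of the 54 genes were called higher and 7 lower in Hyper-organoids, where 16.1% of all genes were called higher and 2.51% lower. Among them were Slc4a8 (4.74), Aqp5 (4.74), Car11 (2.93), Car5b (2.34) and Slc9a3 (1.87) higher, and Clca4b (-3.63), Slc4a5 (-2.34), Ceacam18 (-2.16), Guca2b (-1.40) and Kcne3 (-1.35) lower. Between -VE- and ENR-organoids 0 were called higher and 3 lower by edgeR, namely Car6 (-2.02), Slc4a5 (-1.42) and Slc26a6 (-1.31), where 1.35% of all genes were called higher and 1.2% lower.

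Set side by side, the colonic and the organoid libraries differed in which cells were highest in Guca2a. In the normal colonic library cluster 19, with the highest goblet markers, had 402 CPM of Guca2a against 8581 CPM in cluster 12. Cluster 5, with goblet markers at 50433 CPM in 83 normal cells, had 988 CPM of Guca2a. In organoids Guca2a was highest in Paneth and goblet cells. For Scnn1a cluster 19, at 53.1 CPM, was below 4 of the 28 colonic sums, so no such contrast is drawn. Tissue of origin, culture and depth all differ between these libraries and cannot be told apart, so no fold is given.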

How the data were processed

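Single cells were captured and sequenced with a droplet 3′ assay that tags each transcript with a UMI. The authors deposited UMI counts per gene and cell, made with Cell Ranger 3.0.0 and Seurat 3.1.4 as the submitters' processing notes name them, on mm10, together with a class or cluster for each cell they kept. The deposited counts hold no normalization, and their table of merged cells was checked against the separate libraries: of 4209068 entries compared, 0 differed. The members, the gene lists and the surface ordering were chosen with earlier results of these data known.

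UMIs of kept cells were summed per library, and in organoids also per class with at least 10 cells. Sums were compared over the 3 organoid groups with edgeR 4.0.16 (TMM, filterByExpr, quasi-likelihood test) in R 4.3.3, with p-values adjusted by Benjamini-Hochberg over all genes tested. DESeq2 1.42.0, other size factors, no filter, other choices of cells, each library left out and a replicate block were alternatives, and the fit was tested on simulated data. Deviations of same-numbered ENR and Hyper cultures had correlations of 0.192, 0.170 and 0.436 over 16037 genes. Matched pairs with -VE lay between 0.062 and 0.161, and the unmatched ENR replicate 2 and Hyper replicate 1 had 0.129. The main fits used no pairing, and the numbers served as pairs only in the replicate block. Colonic libraries, 1 per group, were compared by CPM with exact Poisson intervals and no test. Named were the 10 genes, up to 3 called genes of each pathway list with the largest difference, and the 3 genes of most like pattern. Doublets were not called here, and leaving out the 5% of cells with most UMIs was an alternative. Of the kept cells, 291 normal and 533 DSS cells had under 1500 genes. Counts of close paralogs (carbonic anhydrases, Ceacam and Clca genes) may be split between copies.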

Additional observations from a re-analysis of the deposited data

Results flagged for a closer look

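Cftr moved in opposite directions in 2 classes of the same comparison. Between Hyper- and ENR-organoids its log2 fold was -0.26 in the stem class, with each of the 3 Hyper libraries (65.6, 68.6 and 72.4 CPM) below each ENR library (81.7, 80.4 and 85.3 CPM). In the enterocyte class its log2 fold was 0.43, with both Hyper libraries (70.0 and 71.7 CPM) above each ENR library (57.2, 50.7 and 49.2 CPM). The difference between the classes itself was not tested, both folds are under 2-fold, and the Hyper enterocytes were 58 and 21 cells. Cftr was singled out by a search for such opposite directions over the described genes and the comparisons of media. The share of all genes that meet the same rule was not counted. With so few libraries, full separation in both classes can arise by chance, so the pattern is a description only.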

How the results depend on the processing

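Of 1105 alternatives for single genes in organoids, 1028 kept direction and call, 54 lost a call, 13 gained one and 10 changed direction. The number of genes called ranged, with 1 library left out at a time, from 1 to 4 for -VE against ENR in all cells (2 with all libraries), from 0 to 2 for Hyper against -VE stem cells (1), from 1 to 4 for Hyper against ENR enterocytes (4) and from 0 to 1 for Hyper against -VE enterocytes (1). A lone remaining library was assumed to vary like the other groups. Directions that changed belonged to Hyper against -VE: Aqp8 ranged from -3.75 to 0.53 and Car4 from -0.64 to 3.02 with a library left out, Car4 was at -2.14 in thinned cells, and Ceacam20 ranged from -0.14 to 0.16, with -0.0035 in a fit of only these 2 groups and -0.00052 in cells with at least 1500 genes. In the common mix of colonic clusters 0 of the 10 genes passed 2-fold (3 in all kept cells), Slc26a3 turned to 0.24 and Slc9a3 to 0.43. Over all genes 369 of 12170 passed 2-fold in that mix and 563 of 12074 in all kept cells. With the replicate block the genes called numbered 4, 3 and 2 in all cells and 2, 1 and 0 in stem cells for Hyper against ENR, Hyper against -VE and -VE against ENR, with no call changed, and 4, 1 and 4 in enterocytes, where Car2 was gained. Over all genes the block called, in the same order, 3780, 3063 and 439 of 16037 in all cells. It called 2576, 2350 and 140 of 13920 in stem cells and 1197, 718 and 471 of 11154 in enterocytes. The surface score without Saa1 and Cyp2c55 was added after the data were seen. Car4 and Aqp8 rested on at most 32 UMIs a group in -VE- and Hyper-organoids, and the colonic comparison has 1 library per condition, whose intervals cover counting error only.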

Other observations

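Car2 was not at one level over the leukocyte clusters. Clusters 0 and 11 led in markers of T cells, and there Car2 had 314 and 190 CPM in the normal and 411 and 211 CPM in the DSS library. DSS cluster 18 (33 cells) also held T cell markers, at 4428 CPM in sum, beside stroma markers at 12581 CPM. Its Car2 was at 23.2 CPM (6.32 to 59.4). In DSS cluster 8, which led in markers of B and plasma cells, Car2 had 48.7 CPM (30.9 to 73.1), and in DSS cluster 15, which led in myeloid markers, 20.3 CPM (6.58 to 47.3). Car1 in the same DSS clusters lay between 325 and 427 CPM, so the ratio of Car2 to Car1 UMIs was not the same in them. The Car2 values of clusters 0 and 11 are therefore not read as a background level.

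In organoid enteroendocrine cells Car2 was at 15.4 ± 4.16 CPM in ENR (SD, n = 3), 1.78 ± 1.69 CPM in -VE (n = 2) and 3.36 ± 1.76 CPM in Hyper libraries (n = 3), a difference that was not tested. The ENR level rests on 57 UMIs over 212 cells. Scnn1b and Scnn1g, the other subunits of the sodium channel, had 0.502 and 0.0502 CPM in the normal and 1.79 and 0.185 CPM in the DSS library.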
